A study of Mus musculus with 7 samples.

Results

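Glycolysis and the response to low oxygen were followed through 35 genes in cultured mouse oligodendrocyte precursor cells (OPCs), the glial cells that divide in the brain and give rise to myelin-forming oligodendrocytes. The genes were chosen by symbol. They comprise the glucose transporter Slc2a1, the enzymes of glycolysis, lactate dehydrogenases and lactate carriers, and the oxygen sensors, transcription factors and well-known targets of the hypoxia pathway. All 35 were found among 48795 genes in the deposited counts, and 34 passed the filter on low counts. The exception was Car9, a carbonic anhydrase of hypoxic cells, which had 0 to 3 reads in any library.

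The cells were wild-type primary OPCs of the CD-1 strain, isolated at postnatal days 4 to 7 from equal numbers of male and female pups. Controls received no treatment, and no vehicle is named. The treatment was 20 µM phenylephrine (PE), which activates α1-adrenergic receptors, and lasted 1 hour. The set holds 4 control libraries (control 1 to 4) and 3 treated libraries (PE 2 to 4). Libraries with the same number share a library code in their titles, and they are compared here as pairs. Control 1 had no treated partner. The series concerns norepinephrine and OPC proliferation, and the comparison asks which transcripts differ after an hour of α1-adrenergic stimulation.

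Library totals ran from 12837463 to 17962339 counted reads, and 3 reads corresponded to 0.170 to 0.238 reads per 1e6 counted (CPM). The markers listed for OPCs, led by Ptprz1, Pdgfra and Olig1, summed to 7422 to 9947 CPM. Astrocyte markers summed to 993 to 1568 CPM and were thus present in every library. Microglia, neuron, endothelial and mural markers summed to at most 53.8, 122, 47.9 and 146 CPM. The listed microglial genes differed among themselves. Tmem119, P2ry12 and Aif1 did not exceed 1.13 (control 4), 1.06 (PE 2) and 1.56 CPM (PE 2). Csf1r and C1qb reached 16.5 and 11.9 CPM in PE 2, and C1qa reached 11.5 CPM in control 2. The highest values of Tyrobp and Cx3cr1 lay between those of Aif1 and C1qa. Red blood cell markers reached at most 4.67 CPM, with 1 of 4 at 0 in every library.

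Glycolysis splits glucose into pyruvate in the cytosol and yields ATP without oxygen. Pyruvate is then either burned in mitochondria or reduced to lactate, which leaves the cell through monocarboxylate carriers. The hypoxia-inducible factors HIF-1α and HIF-2α are made continuously, but in the presence of oxygen their proteins are hydroxylated by the EGLN enzymes, bound by VHL and degraded. When oxygen falls they accumulate and raise transcription of glycolytic enzymes, Vegfa, Bnip3 and others. HIF activity is therefore set mainly at the protein level, which these libraries do not measure. In the oligodendrocyte lineage, glycolysis and lactate export are known for their part in supporting axons, and HIF signalling for holding back maturation of precursors.

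HIF factors bind DNA at a short core, ACGTG, within the hypoxia response element. The RefSeq promoter windows (GRCm38.p6), which run from 250 bases before to 50 bases after a transcription start, were searched for ACGTG on both strands. A window was listed for 33 of the 35 genes, and 24 of the 33 held a match in at least 1 listed window. Of all tested genes with a window, 28.5% did so. The members include genes known as HIF targets, so this difference describes the choice of genes. Where a gene had several windows, the one nearest the main annotated start was also taken alone, and 20 of 33 then held a match, against 24.4% of all windows of tested genes. Within windows of at least 60% GC the latter share was 26.5%. A match says only that these letters are present.

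The promoters printed below belong to genes whose levels are described in detail further on. They are the lactate dehydrogenase pair Ldha and Ldhb, the inducible hexokinase Hk2, the lactate carrier Slc16a1 and the mitophagy gene Bnip3. Of the pair, Ldha was at its lowest and Ldhb at its highest in control 1. Capitals mark ACGTG or its reverse complement CACGT, and CACGTG, which holds both, counts as 2 overlapping matches. CACGTG is also the binding site of many other factors, among them Bhlhe40 and MYC, and 7.15% of all windows held it. The Ldha window is the upstream one of 2 (chr7:46845554-46845853, plus strand, 5 matches). Its other window, the one nearest the main annotated start, held 0. The other printed genes had 1 listed window each. The Hk2 window (chr6:82774405-82774704, minus strand) held 2, Slc16a1 (chr3:104638414-104638713, plus strand) 3, Bnip3 (chr7:138909457-138909756, minus strand) 2 and Ldhb (chr6:142507908-142508207, minus strand) 0.
Ldha: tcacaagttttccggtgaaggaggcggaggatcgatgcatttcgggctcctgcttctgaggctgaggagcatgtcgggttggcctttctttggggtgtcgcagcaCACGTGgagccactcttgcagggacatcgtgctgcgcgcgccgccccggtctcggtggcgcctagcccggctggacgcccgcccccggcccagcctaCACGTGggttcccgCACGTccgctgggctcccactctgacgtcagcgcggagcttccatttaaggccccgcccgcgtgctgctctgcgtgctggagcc
Ldhb: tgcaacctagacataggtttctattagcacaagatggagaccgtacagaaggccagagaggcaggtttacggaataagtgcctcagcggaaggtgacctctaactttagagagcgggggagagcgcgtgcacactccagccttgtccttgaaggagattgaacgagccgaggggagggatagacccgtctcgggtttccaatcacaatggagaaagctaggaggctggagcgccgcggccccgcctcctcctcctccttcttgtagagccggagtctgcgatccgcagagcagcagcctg
Hk2: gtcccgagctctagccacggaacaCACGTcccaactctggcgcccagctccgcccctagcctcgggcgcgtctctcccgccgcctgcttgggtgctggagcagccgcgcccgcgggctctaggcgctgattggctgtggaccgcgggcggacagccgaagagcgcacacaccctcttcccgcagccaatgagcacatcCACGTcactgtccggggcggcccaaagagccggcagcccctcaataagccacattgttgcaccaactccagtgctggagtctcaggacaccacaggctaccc
Slc16a1: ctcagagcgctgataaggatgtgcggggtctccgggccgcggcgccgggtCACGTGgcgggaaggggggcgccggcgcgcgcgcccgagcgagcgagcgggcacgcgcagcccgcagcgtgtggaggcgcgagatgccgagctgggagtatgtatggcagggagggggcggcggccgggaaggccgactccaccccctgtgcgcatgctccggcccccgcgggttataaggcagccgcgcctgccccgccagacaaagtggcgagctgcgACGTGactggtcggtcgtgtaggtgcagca
Bnip3: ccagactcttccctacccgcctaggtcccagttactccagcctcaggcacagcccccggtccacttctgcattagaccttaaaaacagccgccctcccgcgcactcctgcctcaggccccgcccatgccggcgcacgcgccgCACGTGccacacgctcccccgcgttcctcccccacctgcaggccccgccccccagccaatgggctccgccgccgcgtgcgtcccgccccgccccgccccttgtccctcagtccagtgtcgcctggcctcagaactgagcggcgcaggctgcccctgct

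None of the 34 tested genes passed the test after PE. In the paired fit 0 were called (quasi-likelihood test of edgeR, blocked on replicate number, at a Benjamini-Hochberg adjusted p under 0.05), and the smallest adjusted p was 0.797, for Hk2. Over all 15934 tested genes 86 passed, or 0.540% (0.502% higher and 0.0377% lower). That number lay between 51 and 267 with single libraries or numbers left out, being 253 without number 2, 52 without number 3 and 254 without number 4, and it was 0 without the block. At an unadjusted p under 0.05 there was 1 member, Hk2, where 5.76% of all genes reached that level. The median log2 change of the members was -0.021, with medians of -0.041, -0.014 and -0.040 in pairs 2, 3 and 4, and that of all tested genes was -0.0011. DESeq2 and limma-voom with the block, and edgeR without it, also called 0 members, with 0, 1 and 0 at an unadjusted p under 0.05.

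The intervals bound the size of any change. For 31 of 34 members, or 91.2%, the 95% interval of the fitted change lay within 1.5-fold in either direction, and for all tested genes the share was 79.0%. All 29 members with a control mean of at least 10 CPM were among the 31, and their bounds reached no lower than 0.757-fold and no higher than 1.27-fold. The 3 with wider intervals, Slc16a3, Ankrd37 and P4ha2, averaged under 2 CPM. No member had its PE libraries all above or all below the controls. Of the 15934 tested genes 1.26% did, and at so small a share 0 of 34 says little about the members. These intervals draw on a spread estimated with 2 residual degrees of freedom per gene and on information shared across genes. They concern the change fitted over the pairs, so single pairs can lie outside them.

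**Figure D1:**
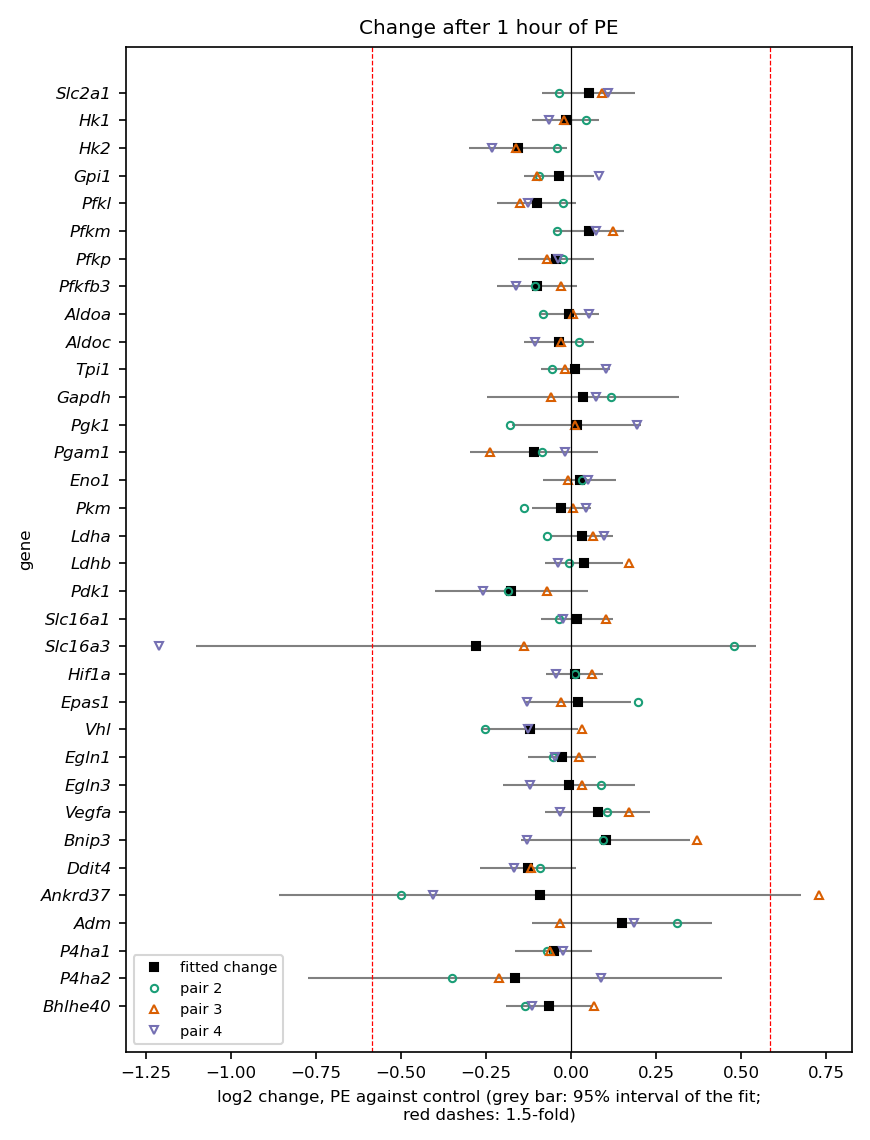
Change of the 34 tested genes after 1 hour of PE. Black squares are the log2 change of the paired fit, grey bars its 95% interval, open symbols the log2 ratio of each of the 3 pairs and red dashes a 1.5-fold change. Every interval except those of Slc16a3, Ankrd37 and P4ha2 lies between the dashes, and 0 genes passed the adjusted threshold.

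Many more members differed between the replicate numbers than between PE and control. A joint test of the replicate number, with treatment as a covariate, called 27 of 34 members, or 79.4%, while it called 68.3% of all tested genes. Among genes of at least 10 CPM the background was 78.0%, and 25 of 29 members passed (86.2%). With numbers left out 24 to 26 members passed. Pgam1, Ldha and Ddit4 did not without number 1, Pfkm, Pfkfb3 and Bhlhe40 without number 2, Gpi1 and Pfkl without number 3, and Pfkfb3 and Pgam1 without number 4. In number 1 the test rests on a single control library. It asks whether numbers differ beyond the spread within pairs. Of the 34, 11 were higher in all libraries of numbers 3 and 4 than in any of numbers 1 and 2, and 8 were lower in all of them, where 26.4% and 25.2% of all tested genes separated in these directions. This split was seen in the data and is given with no test.

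**Figure D2:**
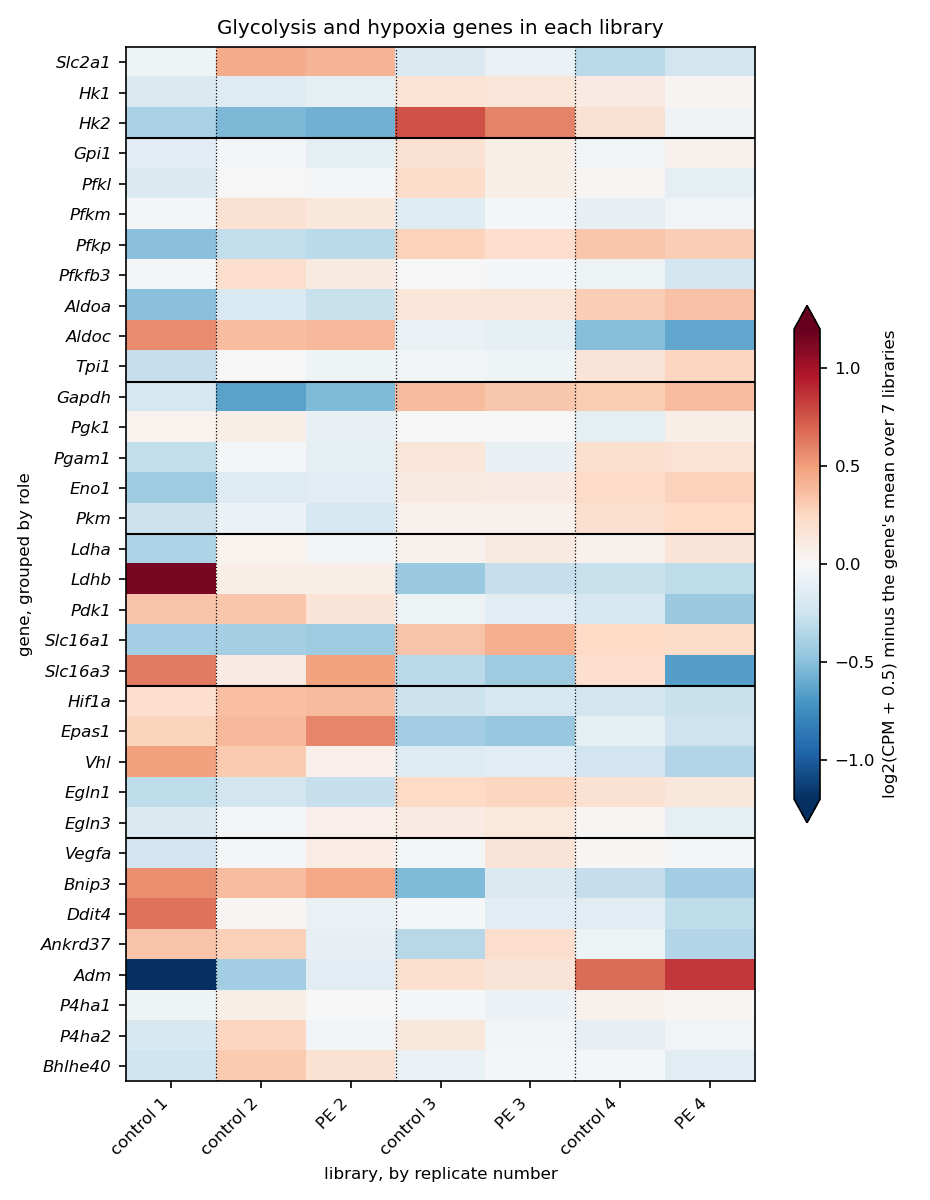
Level of the 34 tested genes in each library, as log2(CPM + 0.5) minus the gene's mean over the 7 libraries, with genes grouped by role and libraries ordered by replicate number. Control and PE libraries of one number share their colours, while numbers 1 and 2 differ from 3 and 4 for genes such as Hk2, Slc16a1, Hif1a and Aldoc.

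Markers of cell state also differed between the replicate numbers. The 8 proliferation genes, among them Mki67 and Top2a, summed to 1325, 2162, 3319 and 3760 CPM in controls 1 to 4 and to 2175, 3234 and 3623 CPM in PE 2 to 4. The 8 genes of committed precursors and oligodendrocytes, led by Gpr17 and Bcas1, summed to 9573, 6306, 3543 and 2444 CPM in the controls and to 6364, 3511 and 2478 CPM after PE. Each of the 8 proliferation genes was higher in all libraries of numbers 3 and 4 than in those of 1 and 2. The second sum was carried by Gpr17 and Bcas1, which alone among its 8 genes were lower there in all libraries. Mbp was highest in number 3, at 773 CPM in control against 720 and 466 CPM in controls 1 and 2. Enpp6 was also highest in number 3, at 161 CPM in control, and Mog was highest in number 4, at 8.48 CPM in control. The part of these states in the values below was not tested. In bulk RNA, fewer cells of a type and less RNA per cell cannot be told apart.

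Levels in the control libraries were compared per kilobase of exon, since longer transcripts collect more reads. Pkm, the pyruvate kinase of the last step, was highest at 149 ± 19.4 CPM per kb (SD, n = 4). Next came Aldoa at 115 ± 27.3, Ldha at 94.1 ± 12.6, Hif1a at 83.6 ± 18.0 and Ldhb at 67.4 ± 38.0 CPM per kb. The ranges over controls of neighbours in this order overlapped. In every control Pkm lay above Aldoa, Ldha, Ldhb and Hif1a, and Ldhb exceeded Hif1a in control 1 alone. Below 2 CPM per kb were Pdk1, Gapdh, Ankrd37, Slc16a3, P4ha2 and Car9.

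Gapdh, usually counted among the most abundant transcripts of any cell, averaged only 1.71 ± 0.564 CPM per kb, and its 7 libraries held 779 reads in all. Its transcript has many near-identical copies in the genome. Of the 50-base words in its principal transcript, 82.5% also occur in annotated transcripts of genes elsewhere in the genome, leaving out genes that overlap it, and 207 such genes in the table held 25716 reads together. For Eno1 the share was 72.2%, for Pgk1 68.0%, for Bnip3 48.9% and for Pgam1 41.5%. For Pkm, Ldhb, Gpi1, Ldha and Aldoa it lay between 13.9% and 34.4%. How the authors' counting treated reads that fit several places is not given in the sources used here. The levels of these genes relative to others are therefore uncertain. Per kilobase of principal transcript instead of all exons, Gapdh came to 4.97, Eno1 to 34.1 and Pkm to 306 CPM. Per kilobase of principal transcript words not shared, Gapdh came to 28.4, Eno1 to 123 and Pkm to 466 CPM. This last measure divides all counted reads by the unshared length, as if no read from shared words had been counted. Whether that holds is not known. No words shared with such distant genes were found for Hk1, Hk2, Pfkm, Slc2a1, Slc16a1, Egln1, Epas1 or Vhl.

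**Figure D3:**
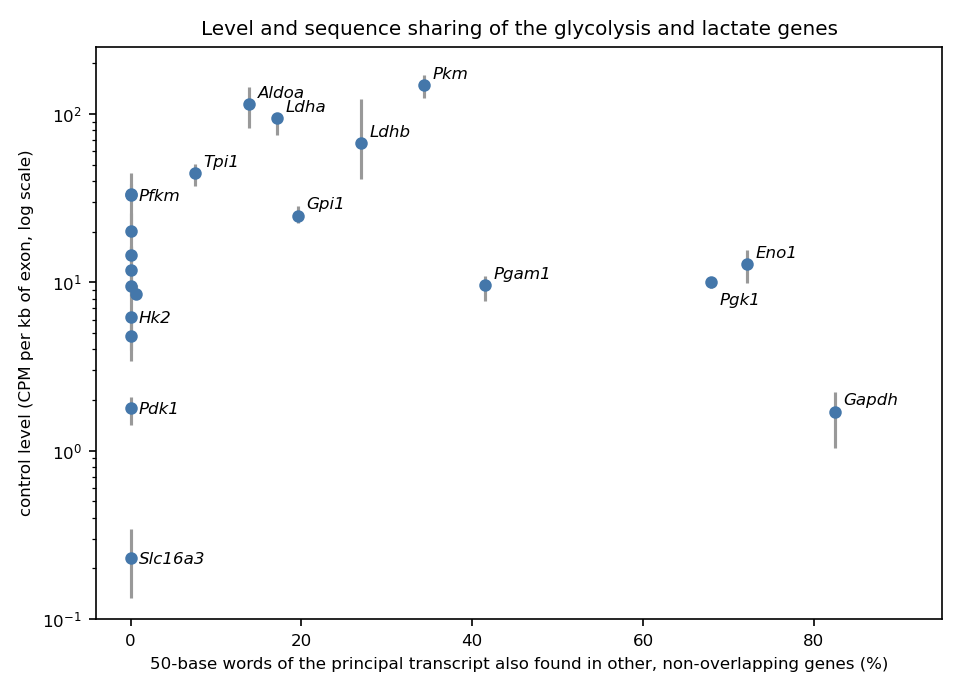
Control level of the 21 glycolysis and lactate genes against the share of 50-base words of their principal transcript that also occur in transcripts of genes that do not overlap them. Points are means of 4 controls, bars span the lowest to the highest control, and the vertical axis is logarithmic. Gapdh, with a share of 82.5%, lies at 1.71 CPM per kb, far below Pkm at 149 CPM per kb.

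Glucose enters OPCs through carriers such as GLUT1, the product of Slc2a1, and is trapped by hexokinase. Slc2a1 stood at 40.2, 56.6, 36.9 and 33.1 CPM in controls 1 to 4 and at 55.2, 39.3 and 35.7 CPM in PE 2 to 4. Number 2 was the highest and number 4 the lowest, with or without PE (log2 change 0.05 ± 0.06 SE, adjusted p = 0.993 by edgeR). The numbers differed (adjusted p = 4.60e-06). Hk1, the constitutive hexokinase bound to mitochondria, held between 111 and 140 CPM in all libraries, and both libraries of numbers 3 and 4 lay above the rest.

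Hk2, the inducible hexokinase, was the member with the smallest p after PE. It measured 26.4, 23.8, 59.2 and 39.6 CPM in controls 1 to 4 and 23.1, 52.9 and 33.7 CPM in PE 2 to 4. Each PE library was below its own control, by log2 ratios of -0.04, -0.16 and -0.23, and the groups overlapped. The fitted change was -0.16 ± 0.07 (0.897-fold, 95% interval 0.812 to 0.991, unadjusted p = 0.0338, adjusted p = 0.797), so it did not pass. The gene varied 2.49-fold among controls, and the numbers differed (adjusted p = 1.27e-08). As a share of Hk1 and Hk2 together per kilobase, Hk2 made up 25.5%, 23.4%, 37.7% and 29.8% in controls 1 to 4 and 22.3%, 35.5% and 27.4% in PE 2 to 4. The share was lower after PE in all 3 pairs, by 1.04, 2.26 and 2.37 percentage points, and these differences were not tested.

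Phosphofructokinase commits the sugar to glycolysis, and all 3 of its genes were detected. Pfkm held 64.5% to 74.1% of the family per kilobase in every library, Pfkl 18.3% to 23.2% and Pfkp 7.56% to 13.0%. These shares depend on the lengths used, since Pfkp has a long exon total of 13401 bases, and by raw counts Pfkm averaged 46.8%, Pfkp 26.7% and Pfkl 26.6% in controls. Exons of Pfkp overlap the gene Pitrm1 (13152 reads over all libraries, against 7064 for Pfkp) and those of Pfkm overlap Senp1 and Gm26513 (8093 together, against 11814 for Pfkm), so the values of both are uncertain. Pfkp measured 45.5, 52.4, 78.5 and 81.5 CPM in controls 1 to 4 and 51.5, 74.7 and 79.3 CPM in PE 2 to 4. Numbers 3 and 4 lay wholly above numbers 1 and 2 (adjusted p = 1.35e-07 between numbers), and the log2 ratios within pairs were -0.02, -0.07 and -0.04. Pfkm itself ranged from 102 to 128 CPM. Pfkl had a log2 change of -0.10 ± 0.06 after PE, and Pfkfb3, whose product makes the activator fructose 2,6-bisphosphate, one of -0.10 ± 0.06. Both were lower in 3 of 3 pairs without passing (adjusted p = 0.914 for each by edgeR).

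The aldolase genes Aldoa and Aldoc showed opposite patterns across the replicate numbers. Aldoa, the broadly expressed form, measured 241, 300.1, 377 and 420 CPM in controls 1 to 4 and 283, 378 and 435 CPM in PE 2 to 4. Aldoc, the brain form that is richest in astrocytes, measured 145, 127, 92.6 and 68.5 CPM in the controls and 129, 90.7 and 63.7 CPM after PE. Aldoa was thus highest in number 4 and lowest in number 1, and Aldoc the reverse (adjusted p = 3.89e-08 and 2.60e-09 between numbers, edgeR). Aldoc was the lesser form in every library, with 34.95%, 27.4%, 18.0% and 12.7% of the pair per kilobase in controls 1 to 4. The 8 astrocyte markers together were highest in number 2 (1558 CPM in control) and lower in control 1 (993 CPM) than in control 4 (1093 CPM), but they differed among themselves. Aldh1l1 ran like Aldoc, at 90.6, 85.9, 59.0 and 32.3 CPM in controls 1 to 4. Gfap, Aqp4, Gja1, S100b and Fgfr3 were also lowest in number 4. The remaining markers, Slc1a2 and Slc1a3, were lowest in control 1, at 176 and 229.8 CPM. The part of astrocyte transcripts in the Aldoc values was not tested. Neither aldolase passed the test after PE, with log2 changes of -0.01 ± 0.04 and -0.04 ± 0.05.

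Of the remaining enzymes of the hexose and triose steps, Gpi1, which interconverts the hexose phosphates, ranged from 146 to 182 CPM, and Tpi1, which interconverts the triose phosphates, from 103 to 150 CPM. For both, PE and control libraries overlapped. The enzymes of the payoff phase, in which ATP is made, had log2 changes between -0.11 and 0.04 after PE, and 4 of the 5 differed between numbers. Pkm measured 627, 715, 776 and 856 CPM in controls 1 to 4 and 650, 779 and 882 CPM in PE 2 to 4. It was highest in number 4 and lowest in control 1 (adjusted p = 1.18e-05 between numbers), and its change after PE was -0.03 ± 0.04 (95% interval 0.923 to 1.04-fold). Eno1, the enolase gene, ran from 53.0 CPM in control 1 to 86.3 CPM in PE 4, again with numbers 3 and 4 above the rest. Pgk1, the first ATP-yielding kinase of this phase, stayed between 20.8 and 23.8 CPM in all 7 libraries and did not pass the test between numbers (adjusted p = 0.972). Pgam1, a phosphoglycerate mutase, ranged from 15.3 to 21.7 CPM. Gapdh had 4.30 to 9.25 CPM and was higher in numbers 3 and 4, on reads that its copies make uncertain. Its exons also overlap the gene Iffo1 (3412 reads over all libraries, against 779 for Gapdh).

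The lactate dehydrogenases set control 1 apart from the other libraries. Ldhb, the form that dominates in tissues that consume lactate, measured 194, 92.9, 64.2 and 72.9 CPM in controls 1 to 4 and 92.5, 72.2 and 70.9 CPM in PE 2 to 4. Control 1 was more than 2 times any other library, and the numbers differed (adjusted p = 5.78e-10, edgeR), the smallest value among the members. Ldha, the form that dominates in glycolytic tissues, measured 249, 330, 332 and 334 CPM in the controls and 314, 348 and 357 CPM after PE, with control 1 lowest. Ldhb therefore made up 62.1% of the pair per kilobase in control 1, against 37.2%, 28.9% and 31.5% in controls 2 to 4 and 38.3%, 30.5% and 29.5% in PE 2 to 4. Lengths decide which form leads there, since by raw counts control 1 held 2849 reads of Ldhb and 3666 of Ldha. Without number 1, Ldhb stayed past the threshold between numbers and Ldha did not (adjusted p = 4.51e-05 and 0.262). After PE the log2 changes were 0.04 ± 0.05 for Ldhb and 0.03 ± 0.04 for Ldha.

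**Figure D4:**
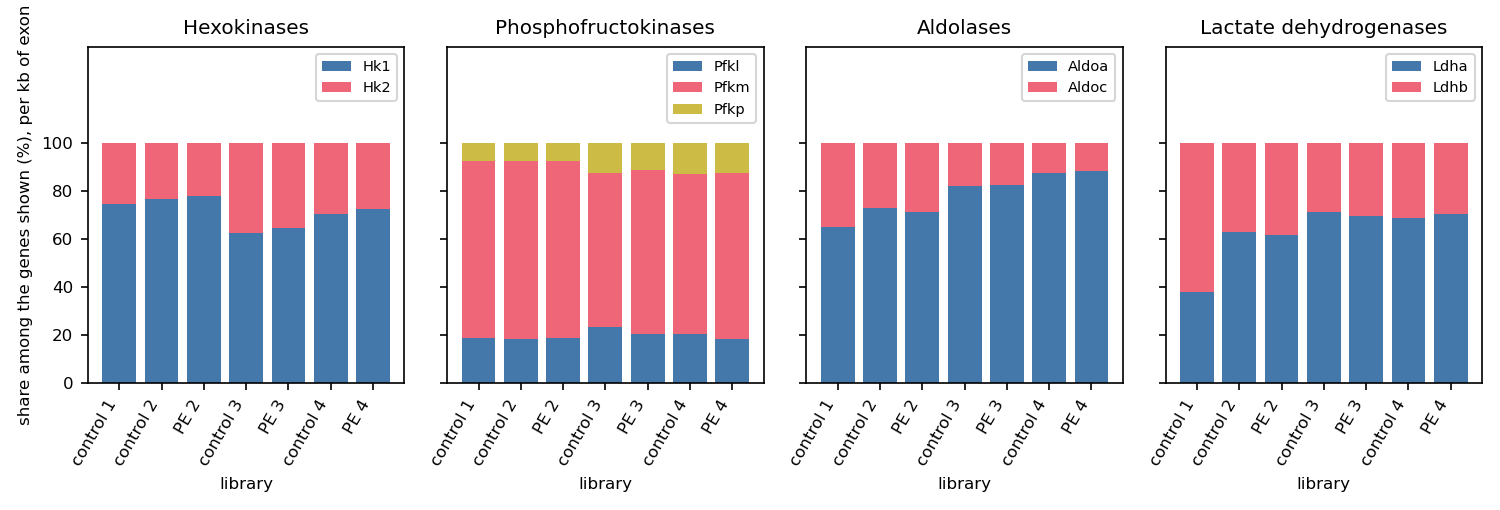
Share of each gene among the members of its enzyme family, from CPM per kilobase of exon, in each library ordered by replicate number. Ldhb holds 62.1% of the sum of Ldha and Ldhb in control 1 and 28.9% to 38.3% in the other libraries, and Aldoc 34.95% of the sum of Aldoa and Aldoc in control 1 and 11.5% in PE 4.

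The transcript of the lactate carrier MCT1, encoded by Slc16a1, was far more abundant than that of MCT4, encoded by Slc16a3. Slc16a1 stood at 67.8, 68.5, 114 and 107 CPM in controls 1 to 4 and at 66.8, 123 and 105 CPM in PE 2 to 4. Numbers 3 and 4 lay wholly above 1 and 2 (adjusted p = 2.74e-08 between numbers), and PE left it at 1.01-fold (95% interval 0.940 to 1.09). Slc16a3, whose product is the exporter of highly glycolytic cells, had 0.461 to 1.84 CPM and at most 2.20% of the pair per kilobase. The share leaves out Slc16a7, encoding the carrier MCT2, which stood at 60.5, 58.6, 39.2 and 38.8 CPM in controls 1 to 4 and at 67.2, 43.0 and 36.2 CPM in PE 2 to 4. Pdk1, a kinase that keeps pyruvate out of mitochondria, measured 16.2, 16.2, 12.2 and 11.1 CPM in controls 1 to 4 and 14.2, 11.6 and 9.23 CPM in PE 2 to 4. It was lower in 3 of 3 pairs, and its log2 change of -0.18 ± 0.11 did not pass (adjusted p = 0.924).

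**Figure D5:**
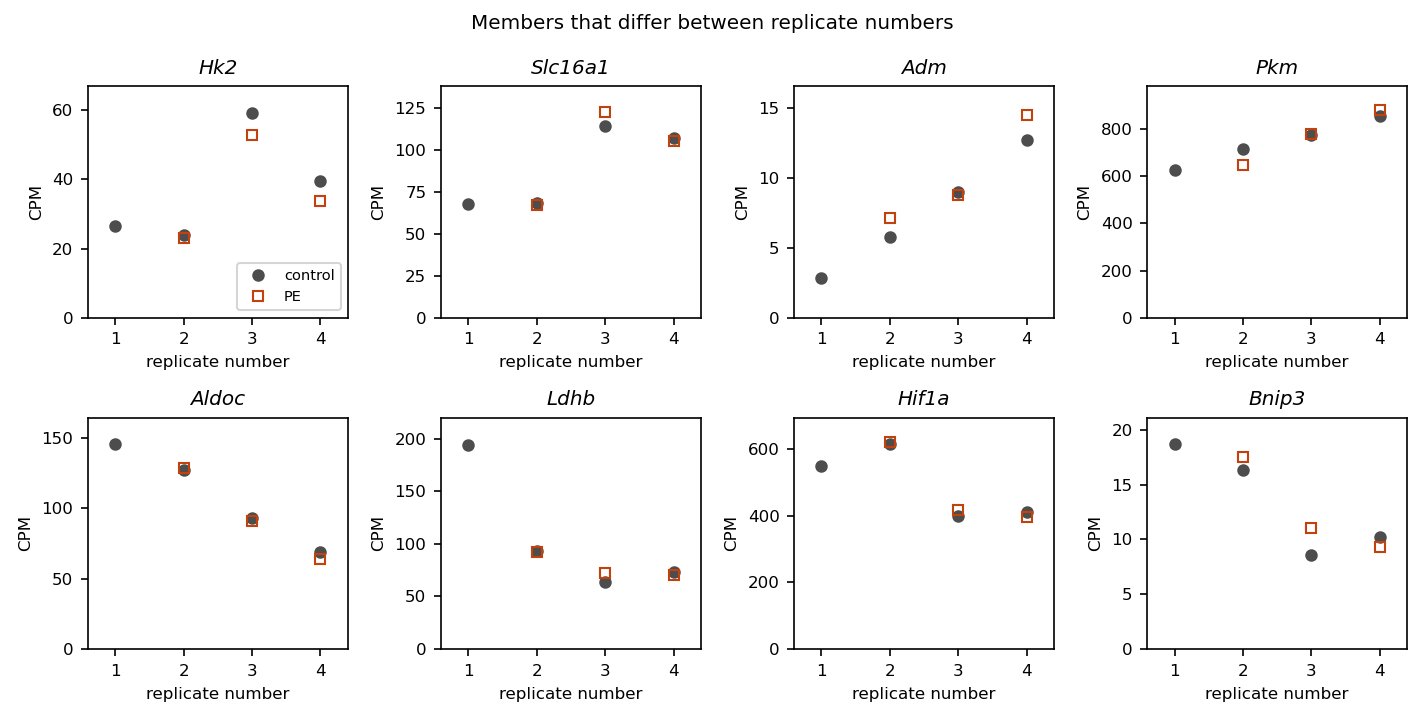
CPM of 8 members by replicate number, with filled circles for control and open squares for PE, on axes that start at 0. Control and PE libraries of a number lie close together, for example at 114 and 123 CPM for Slc16a1 in number 3, while Ldhb reaches 194 CPM in control 1 alone.

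Among the HIF factors, Hif1a averaged 83.6 CPM per kb in controls and Epas1, the gene of HIF-2α, 7.39 CPM per kb. Hif1a held 90.8% to 93.2% of the pair per kilobase in every library. Hif1a measured 548, 615, 399 and 410 CPM in controls 1 to 4 and 620, 416 and 397 CPM in PE 2 to 4. Epas1 measured 47.8, 51.8, 29.4 and 36.4 CPM in the controls and 59.4, 28.7 and 33.2 CPM after PE. Both were lower in numbers 3 and 4 than in 1 and 2 (adjusted p = 2.06e-08 and 7.41e-07 between numbers). PE left Hif1a at 1.01-fold (95% interval 0.951 to 1.07) and Epas1 at 1.02-fold (0.911 to 1.13).

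The oxygen-sensing genes ran in different directions across the replicate numbers. Egln1, the main HIF prolyl hydroxylase, measured 79.9, 84.7, 116 and 112 CPM in controls 1 to 4 and 81.5, 118 and 109 CPM in PE 2 to 4, so that it was higher in numbers 3 and 4 (adjusted p = 1.75e-06). Vhl, the gene of the protein that marks hydroxylated HIF for degradation, measured 67.3, 59.6, 42.8 and 40.7 CPM in the controls and 49.9, 43.8 and 37.3 CPM after PE. It was lower in numbers 3 and 4 (adjusted p = 2.02e-05), and PE left it at 0.920-fold (95% interval 0.834 to 1.01). Egln3, a hydroxylase that is itself a HIF target, stayed between 15.8 and 19.6 CPM and passed neither the test between numbers (adjusted p = 0.284) nor that of PE (adjusted p = 1.00).

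The other hypoxia response genes varied in several directions. Vegfa, the angiogenic growth factor, stood at 26.0, 30.5, 30.5 and 31.1 CPM in controls 1 to 4 and at 32.8, 34.3 and 30.4 CPM in PE 2 to 4, and did not pass the test after PE (log2 change 0.08 ± 0.07, adjusted p = 0.978). Bnip3, a mitophagy receptor, measured 18.7, 16.4, 8.54 and 10.2 CPM in the controls and 17.5, 11.1 and 9.28 CPM after PE, lower in numbers 3 and 4 (adjusted p = 3.49e-05). Adm, encoding the vasodilator adrenomedullin, went the other way and varied most among controls of the tested members, 4.46-fold. It measured 2.85, 5.73, 8.99 and 12.7 CPM in controls 1 to 4 and 7.14, 8.79 and 14.5 CPM in PE 2 to 4 (adjusted p = 2.19e-06 between numbers). The known HIF targets Bnip3 and Adm thus differed in their order over the replicate numbers. Vegfa did not pass the test between numbers (adjusted p = 0.208, edgeR).

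Ddit4, an inhibitor of mTOR signalling that is induced by stress as well as hypoxia, measured 57.7, 36.9, 36.0 and 33.1 CPM in controls 1 to 4 and 34.6, 33.2 and 29.5 CPM in PE 2 to 4. Control 1 stood above the rest, and the ratio within pairs was below 0 in 3 of 3 (log2 change -0.13 ± 0.07, adjusted p = 0.914). P4ha1, a collagen prolyl hydroxylase, was the steadiest tested member at 60.4 to 66.6 CPM, and its relative P4ha2 held at most 1.62% of the pair. Bhlhe40, a transcriptional repressor that responds to hypoxia and to the clock, ranged from 46.9 to 69.4 CPM and had a log2 change of -0.06 ± 0.06. Ankrd37 stayed between 0.692 and 1.43 CPM. Its exons overlap Ufsp2 and Lrp2bp (4179 reads together over all libraries, against 108 for Ankrd37), so its values are uncertain. In all, 8 of 34 members (23.5%) were lower in every pair and 0 were higher in every pair, where 13.5% and 11.9% of all tested genes behaved so. The 8 were Hk2, Pfkl, Pfkp, Pfkfb3, Pgam1, Pdk1, Ddit4 and P4ha1, and none passed the test.

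Further genes of these pathways were listed, and 0 passed after PE in any list. The lists held 23 other glycolysis and glucose genes, 37 other hypoxia targets, 11 HIF pathway components, 16 genes of pyruvate and lactate entry into mitochondria and 7 pentose phosphate genes that were tested. Their median log2 changes were 0.0031, -0.0026, -0.0088, 0.017 and 0.019, and 20, 30, 9, 12 and 4 of them differed between numbers. Of 39 hypoxia targets listed, Ero1a was not matched by symbol. The smallest p among the glycolysis genes belonged to the regulator Pfkfb4 (log2 change -0.28 ± 0.12, adjusted p = 0.782) and the neuronal glucose transporter Slc2a3 (0.13 ± 0.06, adjusted p = 0.851). The smallest p in the mitochondrial list belonged to the kinase Pdk4 (0.22 ± 0.09, adjusted p = 0.768), and that in the pentose phosphate list to Rpia (-0.17 ± 0.09, adjusted p = 0.919). Among the HIF components it was Elob (-0.07 ± 0.07, adjusted p = 0.978).

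The hypoxia targets with the smallest p were Ppp1r3c, Ndrg1 and Cited2. Ppp1r3c, which promotes glycogen synthesis, measured 18.2, 29.6, 24.8 and 19.8 CPM in controls 1 to 4 and 32.2, 31.2 and 31.0 CPM in PE 2 to 4. Ndrg1, a stress- and hypoxia-induced gene that is also known in myelinating glia, measured 2.85, 3.02, 3.17 and 2.37 CPM in the controls and 4.74, 5.54 and 3.69 CPM after PE. For both, each PE library lay above every control, as in 1.26% of the tested genes, counting both directions. Neither passed, with log2 changes of 0.37 ± 0.09 (adjusted p = 0.141) and 0.70 ± 0.18 (adjusted p = 0.185). Cited2, a transcriptional coregulator that limits HIF activity, had a log2 change of 0.24 ± 0.09 (adjusted p = 0.648) and was lower in pair 2 and higher in pairs 3 and 4.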

How the data were processed

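RNA sequencing counts of 7 libraries of primary mouse OPCs were used. The authors deposited raw, unnormalized counts by Ensembl gene identifier, in 1 column per library and with 0 columns left unmapped. The tools named were bcl2fastq 2.17, HTSeq and STAR, and the builds mm10 and GRCm38, per the submitters' processing notes. How multiply aligned reads were handled, which annotation served and how strand was set is not given in the sources used here. A low-input full-length cDNA kit and Nextera XT, named by the labels' protocols, do not mark strand. Reads from stretches where exons of different genes overlap therefore cannot be told apart. How many reads fall in such stretches was not measured. The same protocols describe tamoxifen, virus and immunoprecipitation steps for mice, and whether these touch the cultured cells is not given.

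Groups and replicate numbers come from the sample titles. Counts were tested with edgeR 4.0.16 in R 4.3.3 (TMM, filterByExpr with minimum count 10 and minimum total 15, quasi-likelihood F test, two-sided, Benjamini-Hochberg over all 15934 tested genes). The replicate number was a block, since the libraries of a number share a code and their deviations from the group means correlated at 0.74, 0.67 and 0.79 in pairs 2, 3 and 4. Each PE library correlated best with its own control (other controls at most 0.67). Control 1 carries no weight in the PE effect. Nothing states that numbers are separate cultures or animals, so a p-value reflects only how these samples spread, which may be technical. Libraries within each group differed beyond counting error (chi-square over degrees of freedom at least 11.9). Standard errors were the log2 change over the root of F. CPM used TMM-scaled totals, and log2 ratios per pair a prior count of 2. Intervals cover the fitted spread and floors cover counting error only. The procedure was tested on simulated data.

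The members, lists and tests were chosen with earlier results of these data known. All members are accounted for, and of each other list at most 3 genes with the smallest p are named, except 1 gene that is not reported here. The members given with every library were picked after their values were seen. Lengths, positions and principal transcripts came from GENCODE M21 on GRCm38, promoters from RefSeq. Alternatives were no block, other size factors, no filter, DESeq2 1.42.0, limma-voom (limma 3.58.1), robust estimation, left-out libraries and other lengths.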

Additional observations from a re-analysis of the deposited data

Results flagged for a closer look

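In 3 members a single control library stood apart from the other 3, with a gap to its nearest neighbour that exceeded Dixon's 95% critical value of 0.829 of the whole range. In each case it was control 1, which has no treated partner. Ldha was at 249 CPM there (gap 0.957 of the range), Vegfa at 26.0 CPM (0.874) and Ddit4 at 57.7 CPM (0.848), so that Ldha and Vegfa were lowest and Ddit4 highest. Chance alone flags about 1 in 20 groups, and 35 members and 8 family shares were examined. Control 1 carries no weight in the paired PE effect.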

How the results depend on the processing

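No member was called after PE under any alternative, and the smallest adjusted p of a member was 0.225, without replicate 2. The number of genes called after PE, 86 with the replicate block, was 0 without it (71 at an unadjusted p under 0.05), 194 with no filter and 33 with DESeq2, and 51 to 267 with libraries left out. The median log2 change of the members was -0.0004 without the block, when 13 members took the other sign, and -0.0259 to -0.0056 with libraries left out. Slc16a3 moved by over 1.5-fold without number 2, to a log2 change of -0.89, and was not called. Between numbers, DESeq2 called 7194 genes and 21 members, losing Gpi1, Pfkl, Pfkm, Pfkfb3, Pgam1 and Pdk1, and left-out libraries gave 24 to 28 members. That test could not be made without the block. The cause of these shifts was not tested.

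The highest member level over the median member, 12.5, was 17.9 per kilobase of principal transcript, 24.7 over words not shared and 11.8 to 14.4 with a control left out. Shares among members of a family, per kilobase and then by raw counts, were 70.9% and 77.6% for Hk1, 20.1% and 26.6% for Pfkl, 69.8% and 46.8% for Pfkm, 10.1% and 26.7% for Pfkp, 60.1% and 75.1% for Ldha, 39.9% and 24.9% for Ldhb, 98.6% and 97.9% for P4ha1, and 80.2% and 84.6% for Egln1 of Egln1 and Egln3, which leaves out Egln2. Principal transcript lengths gave 83.2% for Hk1, 23.9% for Pfkl, 54.4% for Pfkm, 21.7% for Pfkp, 96.3% for P4ha1 and 93.3% for Hif1a. The lengths of principal transcripts and of words not shared were chosen after seeing the data. Depth limits Car9, Ankrd37, Slc16a3 and P4ha2, which averaged under 2 CPM.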
